A study of Mus musculus with 16 samples.

Results

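The genes described here are 9 members of the cell's protein-folding machinery, in eosinophils of the mouse duodenum. Of these, 4 belong to the cytosolic HSP90 system (Hsp90ab1, Hsp90aa1, Fkbp4 and St13) and 5 to folding and stress handling in the endoplasmic reticulum (ER; Pdia6, Calr, Xbp1, Dnajb9 and Tmx3). They were chosen by gene name from the rows of the authors' deposited tables, with their changes between morning and evening known, so those changes are given as a description and carry no test. Of 1413 genes named in at least 1 of the 2 tables, the members make up 6 of the 1340 in the CD11c-low table and 5 of the 172 in the CD11c-high table. Hsp90ab1 and St13 stand in both.

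Eosinophils were sorted from the lamina propria, the connective tissue under the gut epithelium, by surface CD11c, an integrin chain whose gene is Itgax. The 4 groups were CD11c-low and CD11c-high cells at ZT3 (zeitgeber time, in hours after lights on; called AM) and at ZT15 (PM), with 4 libraries of 1000 cells each. All groups share the tissue and the sort. The sources used here do not give strain, genotype, sex or age of the mice, nor whether libraries came from separate animals. The deposited errors may therefore measure technical spread.

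HSP90 is an ATP-driven dimer that holds kinases, steroid receptors and other clients in a form ready for activation. It works after HSP70, and cochaperones load clients, slow or speed its ATP cycle, or isomerise prolines. In the ER, lectin chaperones such as calreticulin hold glycoproteins while disulfide isomerases pair their cysteines. The unfolded protein response, with IRE1 and its target XBP1 as 1 arm, adjusts this capacity. Eosinophils carry large stores of granule proteins that pass through the ER when they are made.

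Each deposited row gives a mean normalised count over libraries, a log2 fold change at ZT15 over ZT3 shrunken towards 0, its posterior standard deviation (± below) and an s-value. An s-value estimates which fraction of genes would carry a wrong sign if that gene and all genes ranked above it were called. It is not a p-value. Only genes with an s-value under 0.05 are listed, and "rose" or "fell" below means listed with that sign. A gene that is not listed has no value here. Values of single libraries are not part of the tables, so no per-sample level, SD or overlap of groups can be shown, and the depth of the libraries is unknown. In bulk libraries, fewer cells of a type and less RNA per cell cannot be told apart.

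The 5 members with an entry in the RefSeq promoter table (GRCm38.p6; 250 bases before to 50 after the gene's start) were Fkbp4, Pdia6, Calr, Xbp1 and Dnajb9. Searched on both strands were the heat shock element as GAANNTTC or TTCNNGAA, forms that can overlap each other, and the ER stress element, which is CCAAT followed after 9 bases by CCACG. Also searched were the unfolded protein response element TGACGTGG, the cAMP response element TGACGTCA, the clock-related E-box CACGTG and the D-box TTATGTAA. The following stretches, 5′ to 3′ on the gene's strand with the motif in capitals, are shown because Pdia6 and Calr, which moved in opposite directions, carry the same rare element. Fkbp4 and Dnajb9 are shown as the members with a heat shock element or only an E-box.
Pdia6 (chr12:17266471-17266529, plus strand, ER stress element): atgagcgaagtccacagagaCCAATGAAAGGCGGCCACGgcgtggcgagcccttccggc
Calr (chr8:84847055-84847175, minus strand, E-box, then ER stress element in reverse orientation): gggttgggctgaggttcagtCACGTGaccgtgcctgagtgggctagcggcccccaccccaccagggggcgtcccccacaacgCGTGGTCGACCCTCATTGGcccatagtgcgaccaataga
Fkbp4 (chr6:128438780-128438827, minus strand, heat shock element): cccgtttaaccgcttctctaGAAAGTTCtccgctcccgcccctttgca
Dnajb9 (chr12:44210150-44210195, minus strand, E-box): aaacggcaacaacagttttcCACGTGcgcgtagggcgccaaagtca

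The ER stress element, bound by NF-Y together with ATF6, ended 79 bases before the start of Pdia6 and 143 bases before that of Calr. It was found in 39 of 32851 promoters, or 0.119%. The form GAANNTTC of Fkbp4, 143 bases before its start, stood in 7.86% of promoters, TTCNNGAA in 8.52%, and the E-box of Calr and Dnajb9 in 7.15%. None of these letters was found in the Xbp1 window. The unfolded protein response element (0.676% of promoters), the cAMP response element (1.79%) and the D-box (0.938%) were found in no member's window. A match of letters is a description of the sequence and does not show that a factor binds there.

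All 4 HSP90 members rose at ZT15 in CD11c-low eosinophils, and the 2 that were listed in CD11c-high cells, Hsp90ab1 and St13, rose there as well. The ER members moved in both directions and none of the 5 was listed in both tables. In CD11c-low cells Pdia6 rose and Calr fell. In CD11c-high cells Xbp1 rose while Dnajb9 and Tmx3 fell. Together 5 of 6 listed members were higher in CD11c-low cells, where 52.2% of all listed genes were higher and 47.8% lower, and 3 of 5 in CD11c-high cells, where 54.1% were higher and 45.9% lower. Because the members were selected on these values, nothing is read from these counts.

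**Figure D1:**
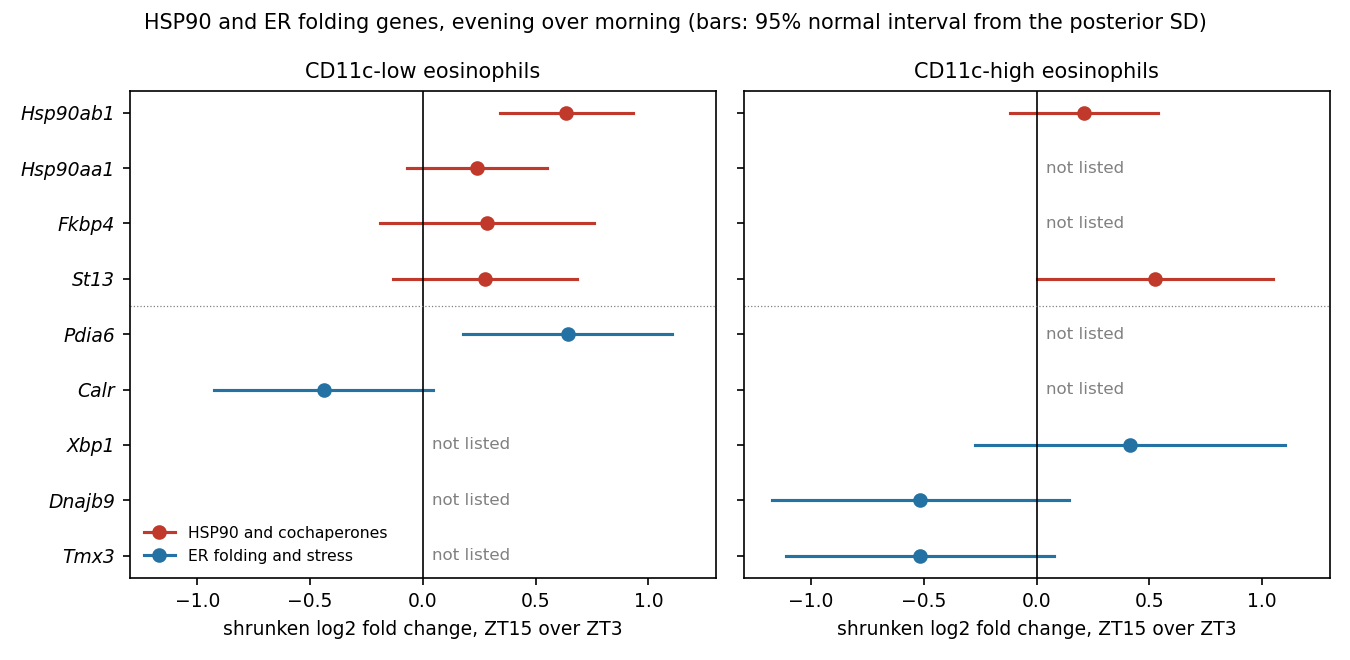
Shrunken log2 fold change at ZT15 over ZT3 (x axis) of each member (y axis) in CD11c-low (left) and CD11c-high (right) eosinophils, from the authors' deposited tables; points are the estimates and bars 95% normal intervals from the posterior SD. All 6 points of the HSP90 group lie above 0, from 0.21 to 0.64, while the ER group lies on both sides, from -0.52 to 0.64.

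Hsp90ab1 (ENSMUSG00000023944.15) encodes HSP90-beta, the constitutive cytosolic form. The authors' deposited table of the CD11c-low subset gave a rise of 0.64 ± 0.15 in log2 (s-value 1.22e-06), with a mean normalised count of 2125. This is an increase of 55.4%, with a 95% normal interval of 26.6 to 90.8%. By s-value it ranked 25 among the 700 genes that rose there, per the authors' deposited table, the highest place of any member in that subset. In CD11c-high cells the rise was 0.21 ± 0.17 (s-value 0.0424, mean normalised count 1243) in the authors' deposited table, which is 15.8% with an interval of -7.75 to 45.2%. That interval includes 0, and the s-value lies near the listing threshold of 0.05.

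Hsp90aa1 (ENSMUSG00000021270.14) encodes HSP90-alpha, the more stress-inducible form. It rose by 0.24 ± 0.16 (s-value 0.0218, mean normalised count 512) in CD11c-low cells per the authors' deposited table, or 18.2% with an interval of -4.67 to 46.6%. It was not listed in CD11c-high cells. Its reads are the least certain of the group. Of all 50-base words in its longest coding transcript (GENCODE M21), 58.5% also occur in transcripts of other genes, most of them in the transcribed processed pseudogene Gm12346 (51.5%). For Hsp90ab1 that share was 4.49%, and neither HSP90 gene shared such a word with the other. The sources used here do not say how reads with several matches were counted.

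Both cochaperone members rose with HSP90. St13 (ENSMUSG00000022403.16) encodes Hip, which stabilises client-bound HSP70 before transfer to HSP90. It rose by 0.53 ± 0.27 (s-value 0.00111, mean normalised count 824) in CD11c-high cells per the authors' deposited table, an increase of 44.1% with an interval of 0.257 to 107%. In CD11c-low cells the change was 0.28 ± 0.21 (s-value 0.0328, mean normalised count 1150), or 21.1%, in the authors' deposited table. Fkbp4 (ENSMUSG00000030357.11) encodes FKBP52, a proline isomerase of HSP90-steroid receptor complexes and the carrier of the GAANNTTC match above. The authors' deposited table gave it a rise of 0.28 ± 0.24 in CD11c-low cells. Its s-value of 0.0444 and mean normalised count of 201 make it the member closest to the listing threshold, per the authors' deposited table.

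Per length, using the longest coding transcript, the order of levels in CD11c-low cells ran from Hsp90ab1 (843 mean normalised counts per kb) through St13 (344), Pdia6 (177), Hsp90aa1 (156) and Calr (121) to Fkbp4 (90.8). In CD11c-high cells Hsp90ab1 (493 per kb) and St13 (246) again led, followed by Dnajb9 (73.8), Xbp1 (65.5) and Tmx3 (42.6). With no spread over libraries, neighbours in these orders cannot be separated, and the tables were normalised separately, so levels are not set against each other. Hsp90ab1 lay at the 92.1th percentile of mean normalised count among listed CD11c-low genes, and Xbp1 at the 16.3th among listed CD11c-high genes.

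**Figure D2:**
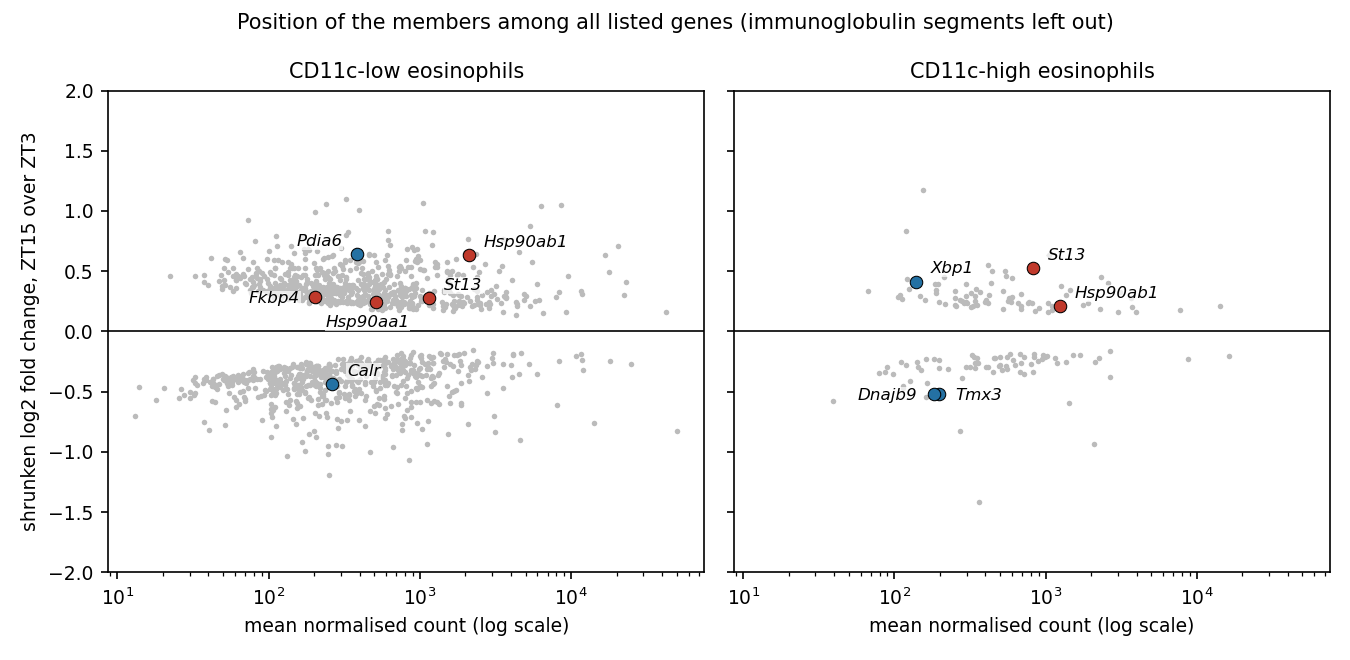
Shrunken log2 fold change at ZT15 over ZT3 (y axis) against mean normalised count (x axis, log scale) for all listed genes without immunoglobulin segments (grey), with HSP90 members in red and ER members in blue, from the authors' deposited tables; the few genes beyond 2 in size are not drawn. Hsp90ab1 and Pdia6 stand at the upper side of the CD11c-low cloud, whereas Hsp90aa1, Fkbp4 and St13 lie at its inner edge.

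Among ER members of the CD11c-low table, the disulfide isomerase Pdia6 (ENSMUSG00000020571.14) rose by 0.64 ± 0.24 (s-value 4.49e-04, mean normalised count 385) in the authors' deposited table. This is 56.0% with an interval of 13.3 to 115%, as large as the change of Hsp90ab1 and with a wider error. Calr (ENSMUSG00000003814.9), which encodes the calcium-binding lectin chaperone calreticulin, fell by 0.44 ± 0.25 (s-value 0.009998, mean normalised count 263) in the authors' deposited table, a change of -26.2% with an interval of -47.3 to 3.30%. The promoters of both carry the ER stress element printed above.

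In CD11c-high cells the ER members were listed at low counts. Xbp1 (ENSMUSG00000020484.20), the transcription factor of the IRE1 arm, rose by 0.41 ± 0.35 (s-value 0.0265, mean normalised count 139) in the authors' deposited table. The tables hold 1 value per gene, so the spliced and unspliced forms of Xbp1 mRNA cannot be told apart. Dnajb9 (ENSMUSG00000014905.5) encodes ERdj4, a J-domain cochaperone of the ER HSP70 BiP, a known XBP1 target and a restraint on IRE1. It fell by 0.52 ± 0.34 (s-value 0.00760, mean normalised count 182) in the authors' deposited table, opposite in sign to Xbp1. Tmx3 (ENSMUSG00000024614.8), a membrane-bound disulfide isomerase, fell by 0.52 ± 0.30 (s-value 0.00426, mean normalised count 196) in the authors' deposited table. Both changed by -30.1%, with intervals of -55.7 to 10.3% for Dnajb9 and -53.8 to 5.58% for Tmx3.

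A gene's own false sign rate, recovered from successive s-values, is stricter than the s-value itself. It was under 0.05 for 3 of 6 listed members in CD11c-low cells (Hsp90ab1, Pdia6 and Calr), against 52.7% of all listed genes there. In CD11c-high cells it was under 0.05 for 3 of 5 (St13, Tmx3 and Dnajb9), against 45.3%. The rates of Hsp90aa1, St13 and Fkbp4 in CD11c-low cells were 0.0601, 0.0855 and 0.111, and those of Xbp1 and Hsp90ab1 in CD11c-high cells 0.0551 and 0.0773. Summed, 0.288 wrong signs are expected among the 6 members and 0.172 among the 5. The 95% normal interval lay on 1 side of 0 only for Hsp90ab1 and Pdia6 in CD11c-low cells and for St13 in CD11c-high cells. Over all listed genes without immunoglobulin segments this held for 30.1% and 6.13%. Because the members were chosen with their values known, nothing is read from these counts and sums.

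The median log2 fold change of all listed genes without immunoglobulin segments was above 0, at 0.21 in CD11c-low and 0.18 in CD11c-high cells, over genes that were listed only because they changed. Relative to it no member's direction flipped, and of the pathway genes named below only Sec11c did. Several rises shrank by more than 1.5 times. In CD11c-low cells, Hsp90aa1 was left at 0.03, St13 at 0.07 and Fkbp4 at 0.08, while Hsp90ab1 was left at 0.43. In CD11c-high cells, Hsp90ab1 was left at 0.03, Xbp1 at 0.24 and St13 at 0.35. Ribosomal protein genes, of which 45 of 48 listed in CD11c-low cells and 12 of 12 in CD11c-high cells were lower, moved in the same libraries. Their part in the members' values was not tested.

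Setting the subsets side by side, 2 of the 9 members were listed in both tables and 7 in 1 only. Per subset, 2 of the 5 members listed in CD11c-high cells were shared, against 57.6% of all genes listed there. In CD11c-low cells it was 2 of 6, against 7.39%. Because the members were chosen from these rows, nothing is read from these shares. The pair differed in which subset had the larger change. For Hsp90ab1 the change in CD11c-high cells was 0.332 of that in CD11c-low cells, and for St13 it was 1.90 times as large. Over the 97 shared genes without immunoglobulin segments the median of this ratio was 0.677, and 18 were larger in CD11c-high cells, where St13 had the second highest ratio. The difference, CD11c-low minus CD11c-high, was 0.42 ± 0.23 for Hsp90ab1 (95% normal interval -0.02 to 0.87) and -0.25 ± 0.34 for St13 (-0.91 to 0.41). These SDs add the variances of both tables as if the subsets were independent. Sample titles share replicate numbers across the subsets, and any covariance between them is not known from the tables, nor is the amount of shrinkage. Both intervals include 0, that of Hsp90ab1 narrowly, and whether either gene differs between the subsets was not tested. For the 7 members listed once, the difference was not tested, since the other table gives no value.

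**Figure D3:**
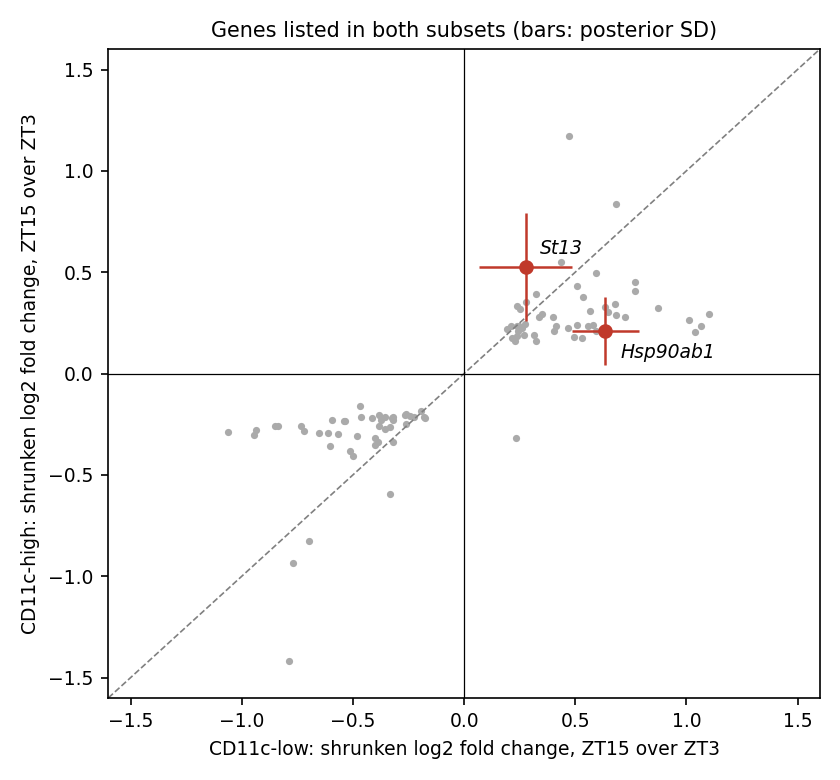
Shrunken log2 fold change at ZT15 over ZT3 in CD11c-low (x axis) and CD11c-high (y axis) eosinophils for the 97 genes listed in both of the authors' deposited tables, immunoglobulin segments left out; bars on the red points are posterior SDs and the dashed line marks equal change. St13 (0.28, 0.53) lies above the line and Hsp90ab1 (0.64, 0.21) below it.

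The other cochaperones listed in CD11c-low cells moved in both directions. The whole HSP90 list of 32 genes had 10 listed, 6 higher and 4 lower, with a median of 0.25. That is 60% higher, against 52.2% of all listed genes. Without the 4 members, 6 of 28 genes were listed, 2 higher and 4 lower, with a median of -0.35. The members were chosen with their rises known, so leaving them out lowers the share of higher genes by construction. Ptges3, whose product p23 stabilises the ATP-bound closed HSP90 dimer, had -0.45 ± 0.21 in the authors' deposited table. Also lower were the membrane-anchored immunophilin gene Fkbp8 (-0.39 ± 0.22) and genes of the ATPase-slowing cochaperones, Fnip1 (-0.30 ± 0.22) and Tsc1 (-0.42 ± 0.34), per the authors' deposited table. Nudc, another HSP90 cochaperone gene, rose by 0.25 ± 0.22 in the authors' deposited table. None of these 28 genes was listed in CD11c-high cells. Of the HSP90 client list, Tbk1, an innate immune kinase gene, fell by 0.54 ± 0.25 in CD11c-low cells and Akt1 rose by 0.32 ± 0.30 in CD11c-high cells, per the authors' deposited tables. The other 18 genes of this client list were in neither table. It holds 20 genes and is not a full set of clients, so clients outside it are not covered here.

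The broader list of 62 cytosolic and related chaperones had 4 higher and 3 lower genes in CD11c-low cells (median 0.26) and none listed in CD11c-high cells. In CD11c-low cells that is 57.1% higher, near the 52.2% of all listed genes. Cct7, a subunit gene of the TRiC chaperonin that folds actin and tubulin, rose by 0.48 ± 0.21 in the authors' deposited table. The J-domain genes Dnajc1 (0.36 ± 0.22), Dnajc7 (0.27 ± 0.19) and Dnajc8 (0.26 ± 0.18) also rose in the authors' deposited table. The product of Dnajc7 binds both HSP70 and HSP90. The microsomal HSP70-like gene Hspa13 fell by 0.43 ± 0.26 in the authors' deposited table, as did Naca (-0.30 ± 0.20), which guards emerging peptides at the ribosome, and the prefoldin gene Pfdn5 (-0.22 ± 0.18). The HSP70 genes Hspa8, Hspa1a and Hspa1b, the HSP40 gene Dnajb1 and the heat shock factor gene Hsf1 were not listed in either table. No member of the list of 14 mitochondrial chaperones was listed.

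In the ER, 22 genes other than the members were listed in CD11c-low cells out of 172 on 5 lists, 14 higher and 8 lower (63.6% higher, against 52.2% of the whole table, and median 0.26, against 0.21 over the table without immunoglobulin segments). None of the 172 was listed in CD11c-high cells. The 5 lists are not a full set of ER genes, so ER genes outside them are not counted here. Among disulfide genes Pdia6 was accompanied by Selenof, a selenoprotein partner of the glycoprotein folding sensor UGGT, which rose by 0.83 ± 0.22 (s-value 9.22e-06) in the authors' deposited table. The oxidase gene Ero1a, which recharges disulfide isomerases, rose by 0.45 ± 0.25 in the authors' deposited table. The membrane-bound isomerase genes Tmx4 (-0.57 ± 0.25) and Tmx1 (-0.32 ± 0.23) fell in CD11c-low cells per the authors' deposited table, where their relative Tmx3 was not listed. In CD11c-high cells Tmx3 fell and Tmx1 and Tmx4 were not listed.

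Beside the fall of Calr, the ER chaperone list had 2 increases in CD11c-low cells. These were Creld2, an ER stress-induced gene (0.41 ± 0.23), and Dnajb11, the gene of the BiP cochaperone ERdj3 (0.23 ± 0.17), per the authors' deposited table. Of the unfolded protein response list, 1 gene was listed there, Tmbim6, whose product, Bax inhibitor 1 of the ER membrane, restrains IRE1. It rose by 0.57 ± 0.16 (s-value 1.71e-05, mean normalised count 1509) in the authors' deposited table. Hspa5 (BiP), Hsp90b1 (GRP94), Canx, Atf4, Ddit3 and Ern1, which encode the central chaperones, factors and sensor of ER stress, were listed in neither table.

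The genes that carry the ER stress element can be set beside these values. They number 37, of which 10 are on the ER lists. In CD11c-low cells 4 of the 37 were listed, 2 higher (Pdia6 and Creld2) and 2 lower (Calr and Syvn1), and in CD11c-high cells 0. Of all 27025 genes with a promoter entry, 1011 were listed in CD11c-low and 117 in CD11c-high cells. The element thus stood before 0.137% of all these genes and before 0.396% of those listed in CD11c-low cells. The second share rests on 4 genes, of which Pdia6 and Calr are chosen members. All genes with an entry include some that eosinophils do not express, and the difference between the shares was not tested. The other 6 on the ER lists (Canx, Derl3, Dnajc3, Ero1b, Hsp90b1 and Hspa5) were not listed. Of the 4 listed genes, Calr, Creld2 and Syvn1 had 95% normal intervals that include 0, and the genes not listed have no value. Whether the element has a part in these changes was not tested.

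ER-associated degradation, which returns misfolded proteins to the cytosol, had 1 higher and 3 lower genes in CD11c-low cells. That is 25% higher, against 52.2% of all listed genes, and rests on 4 genes. Sel1l (0.40 ± 0.27) rose and the gene of its ubiquitin ligase partner, Syvn1 (-0.35 ± 0.29), fell in the authors' deposited table. The deglycosylating enzyme gene Ngly1 (-0.39 ± 0.26) and Herpud2 (-0.28 ± 0.22) fell as well, per the authors' deposited table. None of these 4 had an own false sign rate under 0.05.

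Entry into the ER was the longest ER list and had the most listed genes, 8 higher and 3 lower of 48 in CD11c-low cells. That is 72.7% higher, against 52.2% of the whole table. The median of the list was 0.26, against 0.21 over the table without immunoglobulin segments. The largest changes on it were nonetheless decreases, those of Tram1, a translocon partner gene (-0.76 ± 0.26), and Spcs3, a signal peptidase subunit gene (-0.59 ± 0.21), in the authors' deposited table. Per the authors' deposited table, Ssr3, of the translocon-associated complex, fell by 0.43 ± 0.24. The increases were smaller. The authors' deposited table gave 0.36 ± 0.18 for Sec62, which supports import of finished proteins, and 0.30 ± 0.19 for Dad1, a subunit of the N-glycan transferase. Srp19 (0.35 ± 0.24), Emc7 (0.36 ± 0.25) and Sec11c (0.20 ± 0.15) rose as well in the authors' deposited table.

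**Figure D4:**
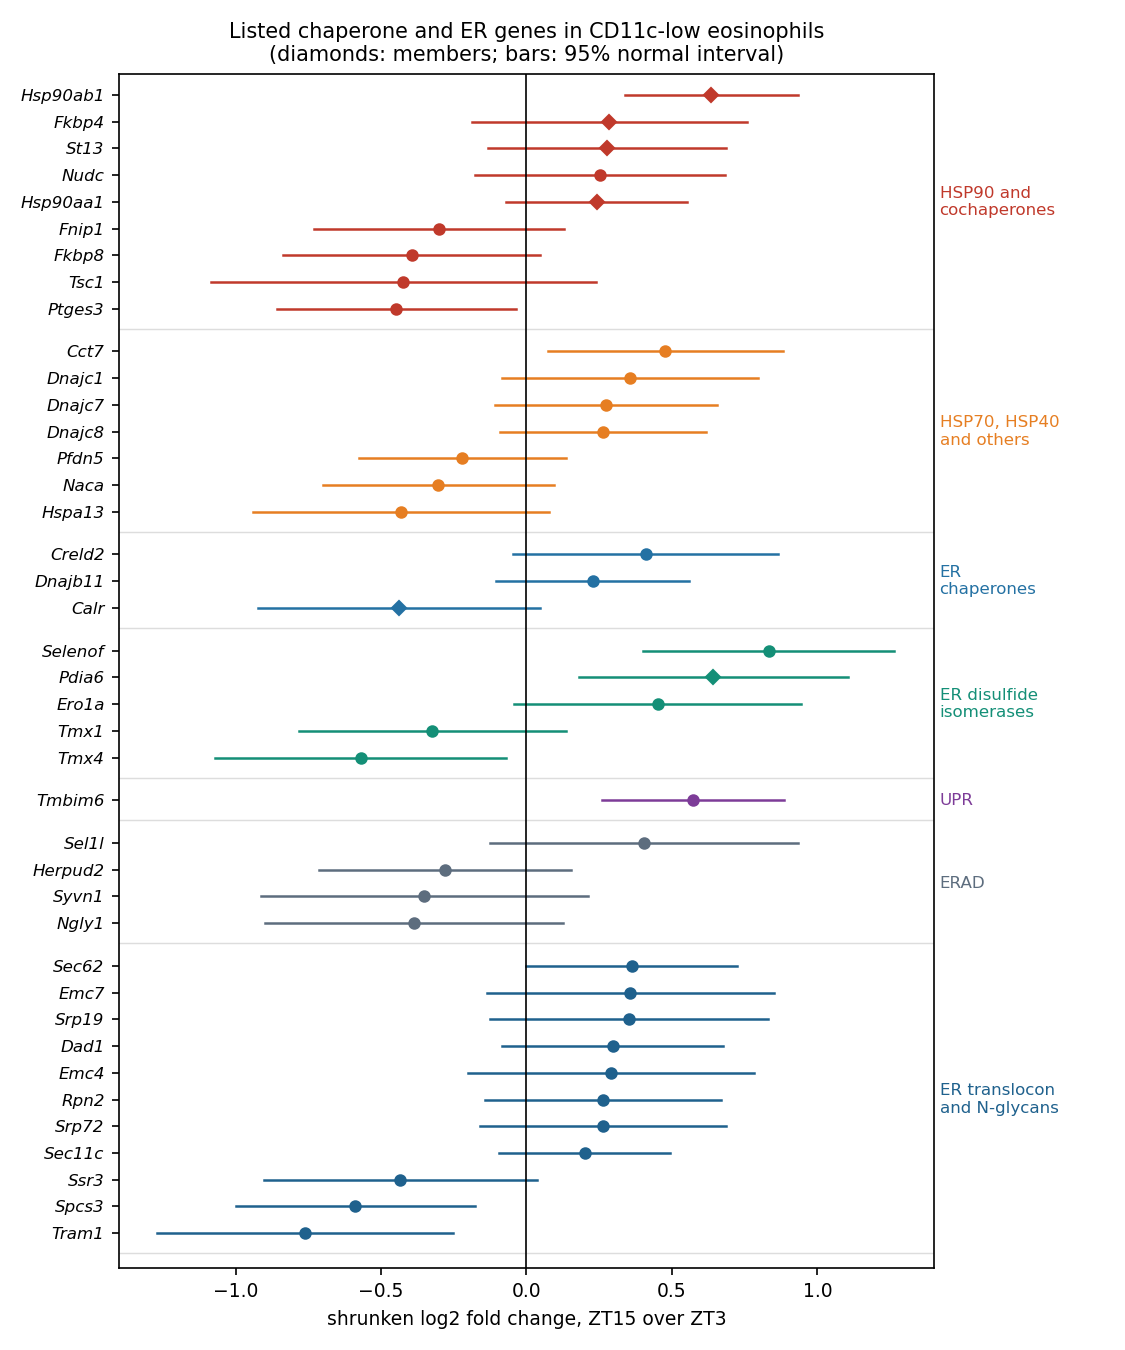
Shrunken log2 fold change at ZT15 over ZT3 (x axis) of the listed genes of the chaperone and ER lists (y axis; 1 is not drawn) in CD11c-low eosinophils, from the authors' deposited table; diamonds are members, bars 95% normal intervals, and UPR and ERAD stand for unfolded protein response and ER-associated degradation. Each list with more than 1 listed gene holds values on both sides of 0, from -0.76 (Tram1) to 0.83 (Selenof).

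Of 17 eosinophil markers, 5 were listed in CD11c-low cells, at mean normalised counts of 1227 to 4887. Csf2rb (0.33 ± 0.16), Alox15 (0.26 ± 0.14) and Siglecf (0.23 ± 0.13) rose in the authors' deposited table. Adgre1 (-0.29 ± 0.14) and Adgre4 (-0.21 ± 0.16) fell there. In CD11c-high cells 1 was listed, Syne1 (0.16 ± 0.11), per the authors' deposited table. Markers not listed have no value, so this checks the labelled cell type only in part. Plasma cells hold much ER and XBP1, and immunoglobulin segments changed in the same libraries: 14 were listed in CD11c-low cells (8 higher, 6 lower, mean normalised counts of 37.0 to 2275) and 9 in CD11c-high cells (7 higher, 2 lower, 11.3 to 410). Of 25 plasma and B cell markers, Bank1 (0.32 ± 0.15) and Ighm (0.24 ± 0.20) rose in CD11c-low cells and none was listed in CD11c-high cells, per the authors' deposited tables. Of the 17 macrophage and dendritic cell markers (mean normalised counts of those listed 3319 in sum), Cd68 (0.52 ± 0.30) and Cd63 (0.22 ± 0.16) rose and Cd74 (-0.49 ± 0.33) fell in CD11c-low cells, per the authors' deposited table. The neutrophil list of 10 gave Trem1 (0.34 ± 0.24, mean normalised count 312) and the epithelial list of 15 gave Krt18 (-0.35 ± 0.24, 159) in the authors' deposited table of the same subset. From 17 T and NK cell markers, Gzma was listed there with an estimate of 20.99 ± 3.33 at a mean normalised count of 30.4, per the authors' deposited table. How many libraries carry that low count is unknown, and the size of this estimate is not read as a fold change. Hdc, 1 of 10 mast cell and basophil markers, rose by 0.58 ± 0.20 in CD11c-low and 0.24 ± 0.19 in CD11c-high cells, per the authors' deposited tables. None of the 11 stromal markers was listed, and apart from Hdc none of these markers was listed in CD11c-high cells. Jchain, Mzb1, Sdc1, Prdm1 and Tnfrsf17, which define plasma cells, were in neither table. Their part in the values of Xbp1, Dnajb9, Calr and Pdia6 was not tested.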

How the data were processed

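RNA of sorted eosinophils was measured in 16 libraries in 4 groups. The submitters' processing notes list STAR 2.7.10b, DESeq2 1.38.3 and the build GRCm39 but assign them no step. Per the file headers, the authors deposited 2 tables of their own PM-against-AM comparison. The mean normalised count is a signal the authors deposited. The log2 fold changes the authors deposited are taken as shrunken and their errors as posterior, because s-values accompany shrunken estimates. PM over AM was read from the tables' names. Groups came from sample titles.

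Values were copied for the 9 members and for genes of pathway and marker lists. Members, lists and motifs were chosen with earlier results of these data known. Named genes are all members and all listed genes of each pathway list, or the 8 with the smallest s-values where more than 10 were listed; 1 gene of a list is counted but not reported here. Software was SciPy 1.17.1, NumPy 2.4.6, pandas 2.3.3 and Python 3.11.15. Computed were 95% normal intervals (estimate ± the normal quantile times the posterior standard deviation), own false sign rates (differences of rank times s-value, tested on simulated data), counts by direction, shares of 50-base words, and motif matches. No test was run. Promoters and transcripts are of GRCm38, so no coordinate of the tables' genes is given from them apart from the promoter sequences, which are RefSeq's. Proteins were not used here. Alternatives were stricter s-values, own false sign rates, a count minimum of 50 and 2 kinds of centring.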

Additional observations from a re-analysis of the deposited data

How the results depend on the processing

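Counts of members depended on the threshold. In CD11c-low cells the 5 higher members became 2 at an s-value under 0.01, under 0.005 and at an own false sign rate under 0.05, and the 1 lower member became 0 under 0.005. In CD11c-high cells the 3 higher became 1 under all 3 settings, and the 2 lower became 1 under 0.005. Next, the other genes of the HSP90 list and the broader chaperone list were counted together in CD11c-low cells. These lists include the microsomal Hspa13, so they are not purely cytosolic. At an s-value under 0.01 their 6 higher and 7 lower genes became 1 and 1. At an own false sign rate under 0.05 they became 2 and 3. At the same settings the other genes of the ER lists in CD11c-low cells went from 14 higher and 8 lower to 4 and 4, and to 5 and 4. These settings keep fewer genes by construction. Keeping genes with a mean normalised count from 50 upwards changed no count by over 1.5 times. Subtracting the median of listed genes, with or without ribosomal protein genes, reversed no member; without ribosomal protein genes Hsp90aa1 was left at 0.01 in CD11c-low and Hsp90ab1 at 0.0095 in CD11c-high cells. Depth is unknown. No paired analysis was possible because no column of either table belongs to a library, and leaving out single libraries could not be run for the same reason.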

Other observations

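The shares of the other promoter motifs among listed genes lay above or below those of all genes with a promoter entry, which include genes that eosinophils do not express, and these differences were not tested. The E-box CACGTG stood before 8.09% of 27025 genes, 13.1% of the 1011 CD11c-low genes with an entry (65 higher and 67 lower) and 16.2% of the 117 CD11c-high genes (12 higher and 7 lower). The cAMP response element TGACGTCA stood before 2.03% of all genes, 3.96% of the CD11c-low genes (16 higher and 24 lower) and 6.84% of the CD11c-high genes (2 higher and 6 lower). The heat shock form GAANNTTC stood before 9.04% of all genes. It stood before 7.02% of the CD11c-low genes (37 higher and 34 lower) and 7.69% of the CD11c-high genes (2 higher and 7 lower). For TTCNNGAA these shares were 9.60%, 7.91% (45 higher and 35 lower) and 9.40% (4 higher and 7 lower). For the D-box they were 1.11%, 0.495% (4 higher and 1 lower) and 0.855% (1 higher and 0 lower). For the unfolded protein response element they were 0.714%, 1.385% (5 higher and 9 lower) and 0%. Of all listed genes, 52.2% were higher in CD11c-low and 54.1% in CD11c-high cells, and nothing is read from the splits by direction. Base composition of these windows was not compared. Rbm3, a cold-inducible RNA-binding protein gene, fell in both subsets, by 0.18 ± 0.13 in CD11c-low and 0.22 ± 0.16 in CD11c-high cells in the authors' deposited tables, while its relative Cirbp was listed in neither. Of the ER calcium list of 16 genes, Sdf4, a calcium-binding protein gene of the secretory pathway, was the 1 listed, with a rise of 0.30 ± 0.21 in CD11c-low cells per the authors' deposited table.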
